A study of Mus musculus with 9 samples.

Results

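The genes described here carry glucose into the cell and break it down to lactate. They are 10 genes chosen by name among the 15109 genes measured: the glucose transporters Slc2a1 and Slc2a3, the hexokinases Hk1 and Hk2, the regulatory enzyme Pfkfb3, the phosphofructokinase subunit Pfkl, and the enzymes Aldoa, Pgk1, Pkm and Ldha. The rule picks them by name and uses no measured value, although they were proposed with earlier results of these data known. All 10 had a row in the data. Poly(A) RNA came from cultured mast cells derived from bone marrow of wild-type C57BL/6 mice, kept in medium conditioned by WEHI-3 cells, a myelomonocytic line that secretes interleukin 3. In the Control group (n = 3) the cells were untreated. In the BSA group (n = 3) they had been loaded with an IgE antibody to the hapten DNP and then given DNP-BSA, the albumin-bound hapten that clusters IgE on its receptor. The Taxinine group (n = 3) received the same antibody and antigen, with taxinine, a taxane diterpenoid of yew, for 1 h before the antigen. The BSA and Taxinine groups thus share both the antibody and the antigen, and the Control group has neither, so BSA against Control compares both together with neither. That difference is called the change with antigen below for short. The labels name no dose of taxinine, time of antigen exposure, solvent control or group with taxinine alone. They call the 3 samples of each group biological replicates without saying whether cultures or animals differed, so the p-values cover only the variation among these samples, and that variation may be technical.

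Glucose enters most cells through the facilitative carriers GLUT1 (Slc2a1) and GLUT3 (Slc2a3), is trapped by hexokinase as glucose 6-phosphate, and passes the committed step at phosphofructokinase. The PFKFB enzymes make fructose 2,6-bisphosphate, the strongest known activator of that step. Aldolase, phosphoglycerate kinase and pyruvate kinase act further down, and lactate dehydrogenase turns pyruvate into lactate while regenerating NAD+. Mast cells are known to take up more glucose and to raise glycolysis when IgE receptors are clustered, and this pathway supplies ATP for degranulation and cytokine production. Many glycolytic genes are also known targets of hypoxia-inducible factors (HIF), whose core DNA motif is ACGTG or GCGTG.

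Promoters were available in RefSeq (build GRCm38.p6) for 9 of the 10 genes, as 15 start sites with 250 bases before and 50 after each. Slc2a3 had no entry. The 250 bases before the start are shown for 4 genes: Hk2 and Slc2a1 from the uptake and trapping steps, Ldha with the most ACGTG matches, and Pfkl with none. Each is written 5′ to 3′ on the strand of its gene, and capitals mark ACGTG or GCGTG on either strand, so that a match on the other strand reads CACGT or CACGC. The Hk2 sequence is chr6:82774455-82774704 (minus strand), Slc2a1 is chr4:119108495-119108744 (plus), the upstream of the 2 Ldha start sites is chr7:46845554-46845803 (plus), and Pfkl is chr10:78009808-78010057 (minus).
Hk2: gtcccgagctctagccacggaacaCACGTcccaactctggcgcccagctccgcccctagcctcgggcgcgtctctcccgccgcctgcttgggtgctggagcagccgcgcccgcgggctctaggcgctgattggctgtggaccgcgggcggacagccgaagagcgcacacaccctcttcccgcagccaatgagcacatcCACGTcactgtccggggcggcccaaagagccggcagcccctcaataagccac
Slc2a1: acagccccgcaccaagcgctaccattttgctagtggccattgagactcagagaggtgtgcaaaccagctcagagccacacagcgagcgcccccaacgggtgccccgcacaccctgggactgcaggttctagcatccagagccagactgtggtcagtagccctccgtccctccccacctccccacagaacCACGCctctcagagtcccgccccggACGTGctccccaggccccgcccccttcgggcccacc
Ldha: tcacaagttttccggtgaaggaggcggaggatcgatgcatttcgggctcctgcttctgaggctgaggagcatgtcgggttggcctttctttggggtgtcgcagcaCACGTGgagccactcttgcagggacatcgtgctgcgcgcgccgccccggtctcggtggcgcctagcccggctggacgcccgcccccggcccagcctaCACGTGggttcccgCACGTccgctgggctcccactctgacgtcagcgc
Pfkl: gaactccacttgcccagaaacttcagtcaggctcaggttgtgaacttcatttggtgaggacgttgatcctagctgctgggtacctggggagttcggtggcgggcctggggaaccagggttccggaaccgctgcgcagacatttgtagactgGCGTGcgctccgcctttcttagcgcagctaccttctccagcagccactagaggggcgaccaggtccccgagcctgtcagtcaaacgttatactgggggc
Counted from the start site as 0, ACGTG lay at -226 and -52 in Hk2 and at -36 in Slc2a1. Ldha held 5 matches, at -145, -144, -48, -47 and -34, where the first 4 come from a pair of palindromic CACGTG E-boxes that each read as ACGTG on both strands. Pfkl held GCGTG at -99 and no ACGTG. Over the full 300 bases and both strands, ACGTG was found in 10 of the 15 promoters, against 19.6% of all 32817 promoters of the same length. These 10 came from 8 of the 9 genes, where a gene counts if any of its start sites matched. The Aldoa promoters chr7:126799129-126799428 and chr7:126799205-126799504 overlap and hold the same ACGTG, at -202 and -126, so the promoters are not all separate. GCGTG was found in 6 of the 15 (32.4% of all promoters), GGGCGG, the SP1 motif, in 10 (35.6%), CACGTG, which contains ACGTG, in 2 (7.15%), and the AP-1 motif TGACTCA and the CRE motif TGACGTCA in 1 each (5.2% and 1.79%). The NF-kB motif was in none (0.155%). The 15 promoters were richer in G and C (median 65% of bases) than all promoters (median 52.7%), and the HIF and SP1 motifs are themselves GC-rich. The matches are descriptions of letters, not sites of binding.

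Libraries held 8975371 to 14116976 counts, fewest in Taxinine replicate 1, and 13803 of the 15109 genes were detected in each of the 9. Levels are given as CPM, counts brought to a common library total after TMM scaling (trimmed mean of M values), and differences as log2 fold changes ± SE from 1 edgeR quasi-likelihood fit over all 9 libraries. A gene was called where the adjusted p (Benjamini-Hochberg over 15109 genes) was under 0.05. The TMM factors were 1.102 to 1.107 in Control and 0.9405 to 0.9628 in the other 2 groups, so scaling by plain totals lowered the fold changes of BSA and of Taxinine against Control: it moved the median of all genes by -0.23 and -0.21 on the log2 scale. Both scalings are therefore given for these genes. In these bulk samples a change in RNA per cell and a change in the share of cells that hold it cannot be told apart.

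With antigen, 9 of the 10 genes rose and none fell, where 16.2% of all genes were called higher in BSA than in Control and 17.8% lower. The exception, Pfkl, had a log2 fold change of 0.10 ± 0.05 (adjusted p = 0.121). Slc2a3 and Hk2 rose more than 2-fold, a rule met by 3.68% of all genes, and the other 7 called genes rose by 0.15 to 0.49 on the log2 scale. The median log2 fold change of the 10 genes was 0.36, against 0.00 over all genes. In all 10 the 3 BSA libraries lay above the 3 Control libraries, as in 20.2% of all genes. With plain totals BSA lay above Control without overlap in 6 of the 10 genes (8.31% of all genes) and below it in none (48.9%). On that scale 6 were called higher, where 7.15% of all genes were, and 1 (Pfkl) lower, where 45.6% were, with a median of 0.13 beside the all-gene median of -0.23. Summed over the 10 genes, the share of all counts was 0.42% ± 0.0096 in Control, 0.531% ± 0.0086 in BSA and 0.505% ± 0.003 in Taxinine (SD, n = 3).

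**Figure D1:**
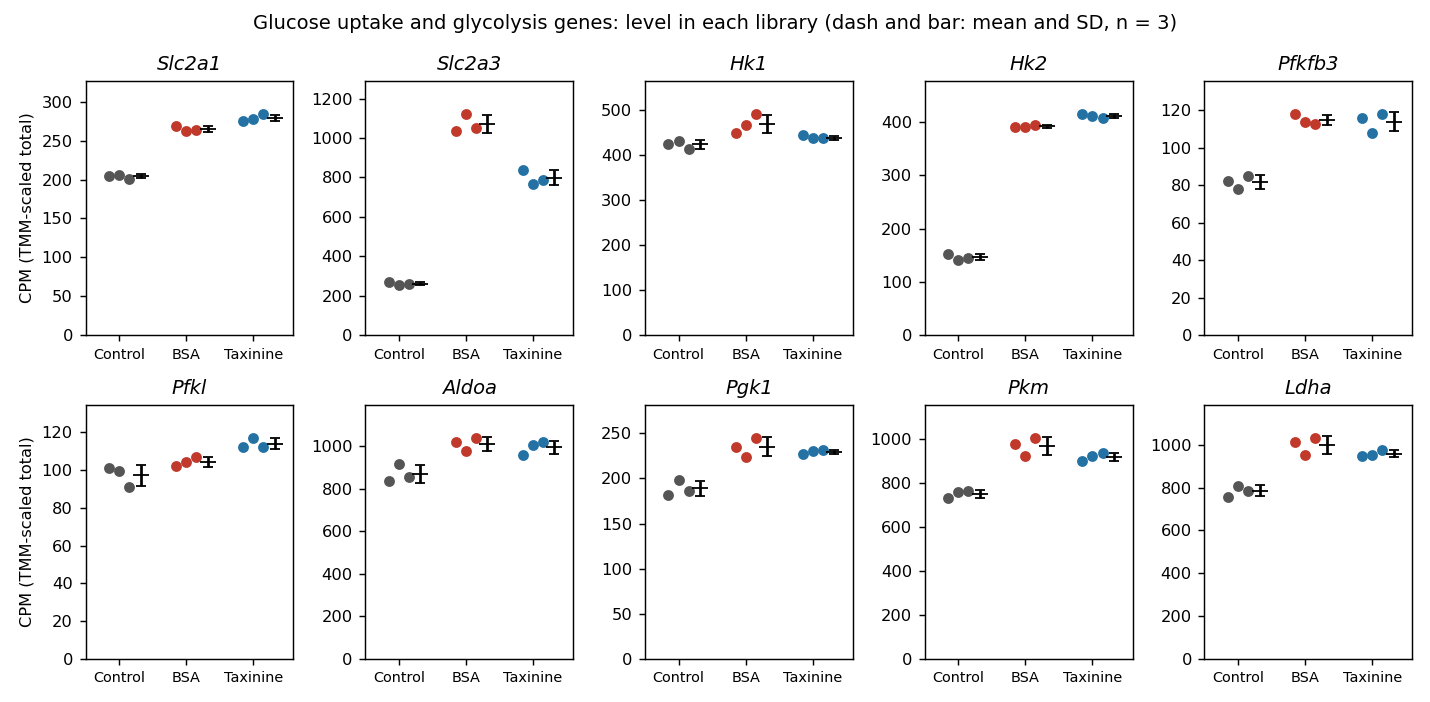
Level of each of the 10 genes in CPM with TMM-scaled totals, with 1 point per library and, beside the points, the mean and SD of each group, n = 3. Slc2a3 lies between 255 and 270.4 CPM in Control, from 1035 to 1121 in BSA and from 765 to 839 in Taxinine, while the Taxinine points of Aldoa, Pgk1, Pkm, Ldha and Pfkfb3 overlap those of BSA.

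The uptake step showed the largest change. Slc2a3 encodes the high-affinity transporter GLUT3 (GRCm38 chr6:122727809-122801640, minus strand). It was measured at 270.4, 255 and 259 CPM in the Control libraries, at 1035, 1121 and 1051 in BSA and at 839, 765 and 789 in Taxinine. The 3 groups did not overlap, with Taxinine between the other two. Slc2a3 rose 4.09-fold with antigen (log2 fold change 2.03 ± 0.04, adjusted p = 1.18e-34, edgeR; 1.81 with plain totals). In Taxinine it was 25.4% lower than in BSA (log2 fold change -0.42 ± 0.04, 95% interval -0.51 to -0.34, adjusted p = 5.36e-10) and still 3.05-fold above Control. The lower level in Taxinine was called under each of 18 alternative settings, at -0.46 to -0.39.

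Slc2a1 encodes GLUT1, the carrier of basal glucose uptake (chr4:119108711-119137983, plus strand). Its levels were 205, 206 and 201 CPM in Control, 269, 262 and 264 in BSA, with 275, 278 and 284 in Taxinine. The rise with antigen was 1.3-fold (log2 fold change 0.38 ± 0.04, adjusted p = 4.8e-10) and 0.15 on the log2 scale, still called, with plain totals. The Taxinine libraries all lay above the BSA libraries, but the difference of 0.08 (95% interval -0.01 to 0.16) was not called (adjusted p = 0.313).

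At the next step, trapping by hexokinase, Hk2 rose more than 2-fold and Hk1 was nearly level. Hk2 encodes the inducible hexokinase that docks on mitochondria (chr6:82725025-82774454, minus strand). It was at 153, 142 and 145 CPM in Control, 390.0, 391 and 394 in BSA, with 415, 411 and 408 in Taxinine. It was 2.67-fold higher in BSA than in Control (log2 fold change 1.42 ± 0.04, adjusted p = 4.36e-29; 1.19 with plain totals). The Taxinine libraries again lay above BSA without overlap, by 0.07 (95% interval -0.01 to 0.15, adjusted p = 0.352), which was not called. Hk1, the widely expressed hexokinase (chr10:62268855-62379908, minus strand), started higher and moved little, at 424, 431 and 413 CPM in Control, 449, 467 and 489.9 in BSA, with 443, 436 and 436 in Taxinine. Its log2 fold change of 0.15 ± 0.04 in BSA against Control was called (adjusted p = 0.00349) but was -0.08, and not called, with plain totals. The Taxinine libraries lay below BSA by 0.10 (log2 fold change -0.10, 95% interval -0.18 to -0.01, adjusted p = 0.167), also not called.

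At the committed step, the regulator Pfkfb3 rose and the enzyme subunit Pfkl was not called. Pfkfb3 encodes the isoform with the highest ratio of kinase to phosphatase activity (chr2:11471433-11554077, minus strand). It was at 82.2, 77.8 and 85.2 CPM in Control, 118, 114 and 113 in BSA, with 116, 108 and 118 in Taxinine. It rose 1.4-fold with antigen (log2 fold change 0.49 ± 0.05, adjusted p = 1.14e-10), and by 0.26, still called, with plain totals. BSA and Taxinine overlapped, and their difference of -0.01 had a 95% interval of -0.11 to 0.10. Pfkl, a phosphofructokinase subunit first known from liver (chr10:77986947-78010083, minus strand), was at 101.2, 99.6 and 90.9 CPM in Control, 102, 104 and 107 in BSA, with 112, 117 and 112 in Taxinine. Neither step between neighbouring groups was called, at 0.10 for BSA against Control (-0.13, called lower, with plain totals) and 0.13 for Taxinine against BSA (adjusted p = 0.148). Taxinine against Control was called at 0.23 ± 0.05 (adjusted p = 0.000408) and was 0.03, not called, with plain totals.

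**Figure D2:**
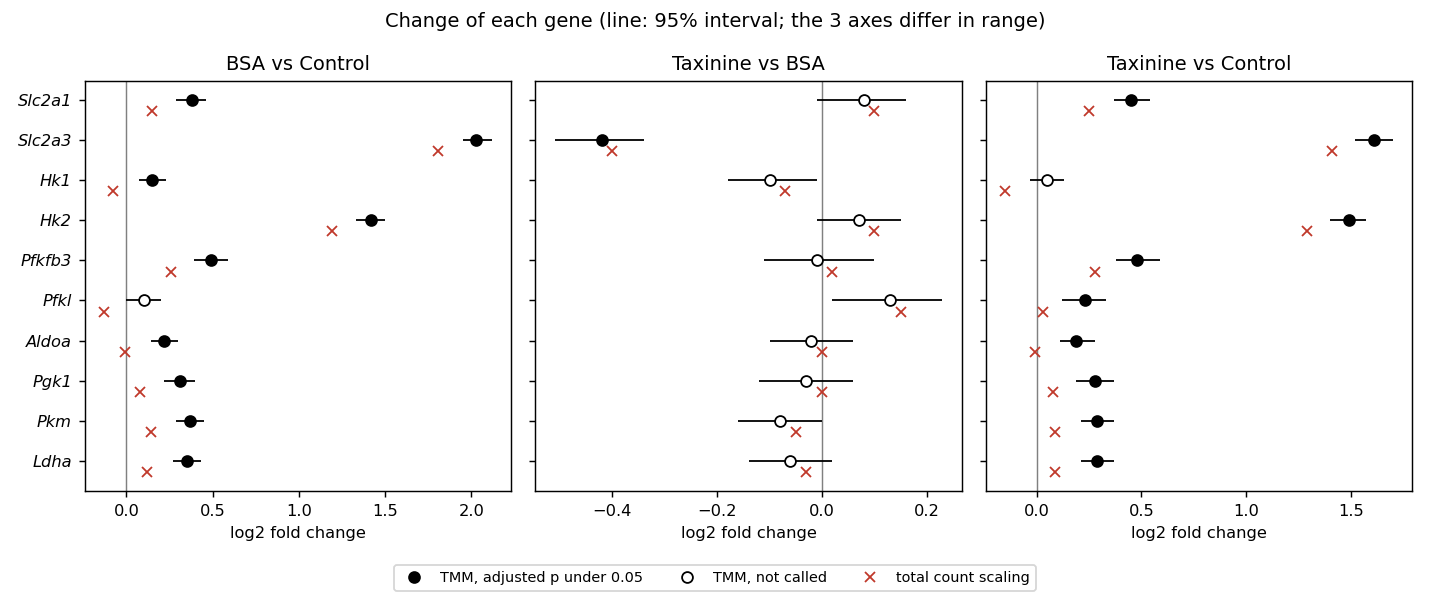
Log2 fold change of each gene in 3 comparisons, where points are the TMM-scaled edgeR estimates, lines their 95% intervals, filled points called genes and crosses the estimates with plain totals; the axes of the 3 panels differ in range. In the middle panel only the interval of Slc2a3, -0.51 to -0.34, belongs to a called gene, and in the outer panels the crosses of Hk1 and Aldoa lie below 0, as does that of Pfkl at the left.

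The 4 enzymes that act after phosphofructokinase rose by less than 1.3-fold with TMM scaling, and Aldoa did not with plain totals. Aldoa, the aldolase of muscle and most other tissues (chr7:126795234-126800751, minus strand), was at 836, 917 and 857 CPM in Control, 1019.9, 976 and 1039.6 in BSA, with 961, 1006 and 1019 in Taxinine. It rose by 0.22 ± 0.04 (adjusted p = 2.55e-05), but with plain totals the difference was -0.01. Pgk1 makes the first ATP of the pathway (chrX:106187100-106203699, plus strand). It was at 182, 198 and 186 CPM in Control, 235, 224 and 245 in BSA, with 227, 230.2 and 232 in Taxinine. The rise with antigen was 0.31 ± 0.04 (adjusted p = 2.22e-07), and 0.08, not called, with plain totals.

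Pkm, the pyruvate kinase gene of most tissues outside liver and red blood cells (chr9:59656368-59679375, plus strand), was at 731, 759.8 and 763 CPM in Control, 977, 923 and 1005 in BSA, with 898, 921 and 936 in Taxinine. It rose by 0.37 ± 0.04 (adjusted p = 2.37e-10). Counts per gene do not separate its PKM1 and PKM2 isoforms. Ldha, the lactate dehydrogenase subunit of glycolytic tissues (chr7:46841475-46855627, plus strand), was at 758, 809 and 786 CPM in Control, 1012, 954 and 1032 in BSA, with 945, 954 and 976 in Taxinine. Its rise was 0.35 ± 0.04 (adjusted p = 8.48e-10), and Pkm and Ldha were still called higher with plain totals, at 0.14 and 0.12. For all 4 enzymes the BSA and Taxinine libraries overlapped.

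The sequences of some of these genes are not unique. Of the stretches of 1 read length in Pgk1 transcripts, 51.6% also occur in another annotated gene; of those in Pkm, 12.1% do, and in the other 8 genes under 1%. Pgk1-rs7, a copy of Pgk1, held 0 to 6 counts per library, and adding its counts to Pgk1 changed no call. Gm6560, a measured gene that shares sequence with Pkm, was not added to Pkm, so its effect was not tested. Slc2a1, Hk1 and Aldoa overlap a gene on the opposite strand by 105, 157 and 25 bases, and Pkm overlaps the unconfirmed transcript Gm49759 on its own strand by 767 bases. The libraries are stranded but the strand setting of the counting is not given in the sources used here, so reads from those stretches are uncertain, and strand cannot separate Pkm from Gm49759.

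In Taxinine against BSA, 1 of the 10 genes was called lower (Slc2a3) and none higher, where 4.12% of all genes were called lower and 2.86% higher (3.15% and 4.28% with plain totals, where Slc2a3 was again the 1 called). The number of all genes called fell from 1055 to 659, 616 and 699 without Taxinine replicate 1, 2 or 3. The median log2 fold change of the 10 genes was -0.03, against 0.00 over all genes. At an adjusted p under 0.05 the remaining 9 genes were not called, and their 95% intervals lay between -0.18 and 0.23. In Hk1, Hk2, Slc2a1 and Pfkl the 2 groups did not overlap although no call was made; groups without overlap made up 23.9% of all genes.

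Against Control, Taxinine showed 9 of the 10 genes higher and none lower, where 15.9% of all genes were called higher and 17.2% lower. Slc2a3 and Hk2 were again past 2-fold, as 3.48% of all genes were, and in all 10 genes the Taxinine libraries lay above the Control libraries (20.9% of all genes). The gene that was not called was Hk1 (0.05 ± 0.04, adjusted p = 0.367). With plain totals Taxinine lay above Control without overlap in 6 of the 10 genes (8.87% of all genes) and below it in Hk1 (46.7%). On that scale 4 were called higher (Slc2a1, Slc2a3, Hk2 and Pfkfb3; 7.31% of all genes) and Hk1 was called lower, at -0.15 (41.6% of all genes). Slc2a1 stood 0.45 ± 0.04 above Control, Hk2 1.49 ± 0.04 and Pfkfb3 0.48 ± 0.05, beside 0.38, 1.42 and 0.49 in BSA against Control. Both comparisons use the same 3 Control libraries.

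Divided by the joined length of all annotated exons of a gene in kb (RPKM), the levels of the 10 genes could be ranked. This length was 8.532 kb for Hk1 and 5.969 kb for Hk2. It can exceed that of the transcripts present, so the ranks depend on it. In Control the order was Aldoa (287 to 315), Ldha (229 to 245), Pkm (146 to 153), Pgk1 (81.3 to 88.2), Slc2a1 (57.3 to 58.7), Hk1 (48.4 to 50.6), Slc2a3 (35.2 to 37.3), Hk2 (23.8 to 25.6), Pfkl (13.6 to 15.2) and Pfkfb3 (10.3 to 11.3), with no overlap between neighbours. In BSA, Slc2a3 had moved from rank 7 to rank 4 (143 to 155 RPKM), between Pkm and Pgk1. Hk2 (65.3 to 66) had passed Hk1 (52.6 to 57.4), and Pfkl and Pfkfb3 overlapped. The order in Taxinine was that of BSA, although Slc2a3 (106 to 116) came closer to Pgk1 (101.2 to 103).

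Shares between paralogs are measured within a library and do not depend on its scaling. Of the length-corrected level of Slc2a1 and Slc2a3 together, Slc2a3 made up 39%, 37.5% and 38.4% in the Control libraries, 65.1%, 67.4% and 65.9% in BSA, with 59.6%, 57.1% and 57.4% in Taxinine. On this scale Slc2a3 was the smaller part in the 3 Control libraries and the larger part in the 6 others. That change of order depends on the length correction: of plain counts, Slc2a3 was already 56.2% in Control. Hk2 made up 34%, 32% and 33.5% of Hk1 and Hk2 in Control, 55.4%, 54.5% and 53.5% in BSA, with 57.2%, 57.4% and 57.2% in Taxinine. Hk2 also went from the smaller to the larger part per length, but of plain counts it remained the smaller part in each group (25.7%, 45.6% and 48.4%). Here the Taxinine libraries lay above BSA, by 2.83 percentage points, where the transporter share lay 8.1 points below it (Taxinine minus BSA, -8.1).

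Pfkl made up 28.9% ± 1.23 of the 3 phosphofructokinase subunits Pfkl, Pfkm and Pfkp in Control, 25.3% ± 0.665 in BSA and 28.4% ± 1.13 in Taxinine (SD, n = 3). Aldoa was 99.3% to 99.6% of Aldoa and Aldoc in the 9 libraries. An exact two-sided permutation test of 3 against 3 libraries cannot go below p = 0.1. Each contrast of the Slc2a3 and Hk2 shares gave that value, as did BSA against Control and Taxinine against BSA for Pfkl and Aldoa, with 0.9 and 0.2 for Taxinine against Control. Over the 12 tests the lowest adjusted p was 0.12, so none can be called by this test.

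**Figure D3:**
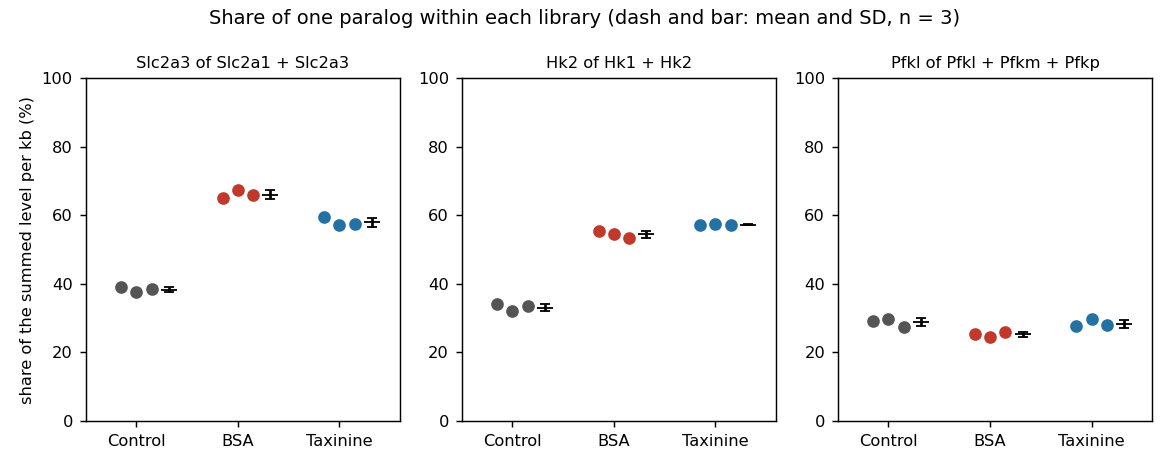
Share of one gene in the length-corrected level of its paralogs, in percent, with 1 point per library and, beside the points, the group mean and SD, n = 3. The Slc2a3 share goes from about 38.3% in Control to 66.1% in BSA and 58% in Taxinine, and the Hk2 share from 33.1% to 54.5% and 57.3%.

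The rest of the pathway was described with 9 other lists of genes. Their counts in BSA against Control stand beside 16.2% of all genes higher and 17.8% lower with TMM, and 7.15% and 45.6% with plain totals. Among other glycolytic enzymes, 14 of 17 were in the table. In BSA against Control 6 rose and none fell with TMM, and 4 rose and 5 fell with plain totals. Pfkp, the platelet phosphofructokinase, was at 413, 396 and 409 CPM in Control and 534, 572 and 549 in BSA (log2 fold change 0.44 ± 0.04). Gapdh, which makes NADH, rose by 0.34 ± 0.04, the isomerase Tpi1 by 0.34 ± 0.04 and the mutase Pgam1 by 0.41 ± 0.05, and these 4 were also called with plain totals. In Taxinine against BSA, 1 was lower, the enolase Eno2, at 13.2, 14.7 and 14.3 CPM in BSA, with 8.79, 10.6 and 10.9 in Taxinine (-0.46 ± 0.11, adjusted p = 0.00585, edgeR). Without Taxinine replicate 1 that call was lost (adjusted p = 0.0571).

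Of the other PFKFB isoforms and Tigar, 4 genes, 0 rose and 1 fell with antigen (0 and 2 with plain totals). Pfkfb2, the isoform first known from heart, was at 13.8, 13.2 and 13.1 CPM in Control, 8.88, 10.7 and 8.28 in BSA, with 12.4, 13.4 and 12.6 in Taxinine. It fell by 0.52 on the log2 scale with antigen (adjusted p = 0.000145, edgeR) and was 0.46 ± 0.12 higher in Taxinine than in BSA (adjusted p = 0.00872). The second call was lost without BSA replicate 1, BSA replicate 3 or Taxinine replicate 2, where the adjusted p reached 0.0642. Pfkfb3 and Pfkfb2 thus moved in opposite directions with antigen.

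Of 9 other hexose transporters 4 were in the table, with 1 higher and 1 lower in BSA against Control (0 and 3 with plain totals). The higher one, Slc2a10, was near its counting limit at 0.256 to 0.595 CPM in Control and 0.835 to 0.946 in BSA, where 3 counts correspond to 0.192 to 0.347 CPM. Slc2a10 was called in 12 of 18 alternatives, and not with total count scaling in edgeR, with DESeq2 or without Control replicate 2 or 3 or BSA replicate 2 or 3 (adjusted p up to 0.108). Slc2a8 fell by 0.46 on the log2 scale (adjusted p = 0.0316), called in 14 of 18 alternatives and not with DESeq2 or without Control replicate 3 or BSA replicate 1 or 2 (adjusted p up to 0.163). Slc2a6, called GLUT6, was at 123, 119 and 133 CPM in BSA, with 109, 113 and 109 in Taxinine (-0.17 ± 0.05, adjusted p = 0.032), a call kept in 11 of 18 alternatives and lost with plain totals and without BSA replicate 1 or 3 or any 1 Taxinine replicate (adjusted p up to 0.202).

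Lactate leaves the cell through monocarboxylate carriers. Of 7 genes of lactate handling 5 were in the table, and 2 rose and none fell with antigen (1 and 1 with plain totals). Slc16a3, the lactate exporter MCT4, was at 81.5, 87.2 and 83.6 CPM in Control, 132, 119 and 121 in BSA, with 112, 106 and 111 in Taxinine. It rose by 0.56 ± 0.05 with antigen and was lower in Taxinine than in BSA (-0.17 ± 0.05, adjusted p = 0.0284), the latter called in 12 of 18 alternatives and lost with plain totals and without BSA replicate 1 or any 1 Taxinine replicate (adjusted p up to 0.199). Slc16a1, the carrier MCT1, was at 27.6, 29.2 and 28.5 CPM in Control, 38.9, 31.8 and 37.6 in BSA, with 42.6, 44.8 and 44.6 in Taxinine. Its rise with antigen was 0.34 ± 0.07 (0.11, not called, with plain totals), and it stood another 0.29 ± 0.07 higher in Taxinine (adjusted p = 0.00761), a call lost without BSA replicate 2 (adjusted p = 0.0881). The MCT4 and MCT1 genes thus differed from BSA in opposite directions in Taxinine.

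Of the genes that bring pyruvate into mitochondria, 13 of 14 were in the table, with 2 higher and 3 lower in BSA against Control (0 and 10 with plain totals). With TMM these counts are near the shares of all genes. Pdp2, a phosphatase that activates pyruvate dehydrogenase, fell by 0.65 on the log2 scale (adjusted p = 7.77e-07), from 19.6, 19.2 and 17.1 CPM to 10.9, 11.7 and 13. It was 0.35 ± 0.11 higher in Taxinine than in BSA (adjusted p = 0.0366), called in 13 of 18 alternatives and lost with DESeq2 and without BSA replicate 1 or 2 or Taxinine replicate 1 or 2 (adjusted p up to 0.169). Of 8 pentose phosphate genes, 2 rose and 1 fell (0 and 6 with plain totals), with H6pd lower by 0.34 (log2 fold change -0.34 ± 0.07) and G6pdx, the entry enzyme of the pathway, higher by 0.20 ± 0.05 (-0.03 with plain totals). Pgls, the next enzyme, was called lower in Taxinine than in BSA (-0.27 ± 0.07, adjusted p = 0.00613).

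All 16 glycogen genes were in the table, with 2 higher and 2 lower (2 and 7 with plain totals), with TMM no larger a share than over all genes. The phosphorylase Pygl, which releases glucose units from glycogen, was at 159, 164 and 167 CPM in Control and 222, 217 and 229 in BSA (0.45 ± 0.04). The kinase subunit Phkg2, part of the enzyme that activates phosphorylase, went the other way (-0.65 ± 0.08), as did Ppp1r3b, which targets a phosphatase to glycogen (-0.92 ± 0.14). No glycogen gene was called in Taxinine against BSA by edgeR. Of 6 gluconeogenic genes 3 were in the table, and Slc37a4 (-0.58 ± 0.09) and Pck2 (-0.22 ± 0.05) fell with antigen. With plain totals 0 rose and 3 fell.

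**Figure D4:**
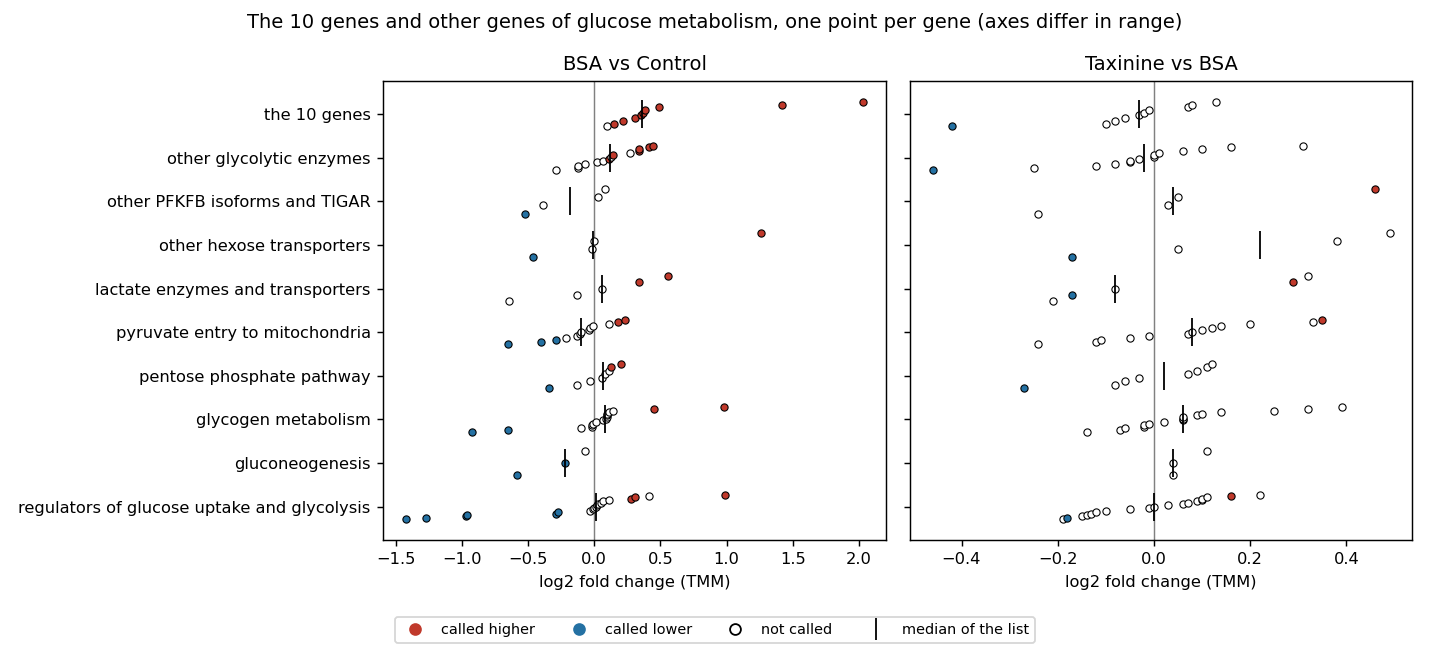
Log2 fold change (TMM) of the 10 genes and of 9 lists of other glucose metabolism genes, with 1 point per gene, a bar at the list median, and fill marking called genes; the axes of the panels differ in range. In BSA against Control the 10 genes run from 0.10 (Pfkl) to 2.03 (Slc2a3), and the regulators reach -1.42 (Myc); with plain totals Pfkl, Hk1 and Aldoa among the 10 lie below 0.

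Of 20 listed regulators of the pathway, 19 were in the table, with 3 higher and 6 lower in BSA against Control (1 and 13 with plain totals). The share higher was near that of all genes. Txnip, an arrestin-like protein that promotes removal of GLUT1 from the surface and whose transcription follows glucose metabolites, was at 986, 1097 and 1045 CPM in Control, 425, 444 and 432 in BSA, with 463, 497 and 492 in Taxinine. It fell by 1.27 on the log2 scale with antigen (adjusted p = 2.27e-27, edgeR). In Taxinine it was 0.16 ± 0.04 above BSA (adjusted p = 0.0132), without overlap of the groups, and this call was lost without BSA replicate 1, Taxinine replicate 2 or Taxinine replicate 3, where the adjusted p reached 0.115. Its relative Arrdc4 fell as well, from 27.2, 24.8 and 25.6 CPM to 13.2, 14.5 and 11.7 (-0.97 ± 0.09), with 11.2, 11.8 and 14.6 CPM in Taxinine.

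Myc, a transcription factor known to drive glycolytic genes, was at 143, 111 and 132 CPM in Control, 47.8, 47.4 and 48.5 in BSA, with 49.8, 48.7 and 48.7 in Taxinine. It fell by 1.42 on the log2 scale with antigen (adjusted p = 1.86e-22, edgeR). A role of Myc was not tested. Vhl, which marks HIF subunits for degradation, was at 46.6, 50.4 and 47.4 CPM in Control, 26, 26.5 and 21.7 in BSA, with 26, 26.2 and 25.8 in Taxinine (-0.96 ± 0.07 in BSA against Control). Chosen after their values were seen, Hif1a and Egln3, a prolyl hydroxylase gene that HIF is known to induce, were higher in BSA. Egln3 was at 8.92 to 10.2 CPM in Control and 18.9 to 19.5 in BSA (0.99 ± 0.10, 0.76 with plain totals). Hif1a rose by 0.28 ± 0.05, but by 0.05, not called, with plain totals. Other HIF pathway genes of the same list were not called in BSA against Control with TMM: Arnt (0.02 ± 0.06), Egln1 (0.07 ± 0.06) and Egln2 (0.01 ± 0.06). A role of HIF was not tested. The kinase gene Stk11 (LKB1), upstream of AMP-activated kinase, was lower in Taxinine than in BSA (-0.18 ± 0.05, adjusted p = 0.0133), a call lost without BSA replicate 3 or Taxinine replicate 1 (adjusted p up to 0.141).

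Genes whose levels followed those of Slc2a3, Hk2 and Pfkfb3 most closely were found by Pearson's r over the 9 libraries, among 5338 genes with a mean log2 CPM of at least 5. All points share the difference between untreated and activated cells, and r is given as a description. Slc2a3 was followed by Cd93 (r = 0.998), Frmd4b (0.998) and Nfkb1 (0.997), an NF-kB subunit gene. Cd93 was at 730.3 ± 35.2 CPM in Control, 1646 ± 61.5 in BSA and 1422 ± 30.1 in Taxinine (SD, n = 3), and Nfkb1 at 322 ± 3.47, 577 ± 17.1 and 520.2 ± 4.65, both with Taxinine between the other groups as for Slc2a3. Hk2 was followed by Rabgef1, Egr2 and Plek (each r = 0.999). Egr2, an immediate early transcription factor, was at 11.1 ± 1.18 CPM in Control, 1345 ± 69.3 in BSA and 1454 ± 14.6 in Taxinine. Pfkfb3 was followed by Tnfrsf9 (0.994), Gnl3 (0.992) and Ctla2b (0.991). Tnfrsf9 encodes the costimulatory receptor 4-1BB and was at 67.3 ± 3.91, 112 ± 6.11 and 114 ± 4.41 CPM.

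The labelled cell type was met by its markers. All 12 mast cell markers were in the table, with a summed level of 47272 to 48955 CPM in Control, 50432 to 52781 in BSA and 50290.2 to 51701 in Taxinine. Cpa3, Cma1 and Tpsb2 were the largest parts of that sum, and single markers moved differently. Hdc (means 195, 1208 and 1142 CPM) and Tpsab1 (39.6, 126 and 127) were lowest in Control. Ms4a2 (2179, 1713 and 1617), Gata2 (1626, 1555 and 1389) and Mitf (88, 82.2 and 72.1) were highest in Control, and the other markers were not. Markers of other blood cells were far lower. Those of macrophages (8 of 9 in the table) summed to 73.9 to 77.1, 88.4 to 97.2 and 79 to 84 CPM in the 3 groups, and those of eosinophils (1 of 4, Siglecf) to 3.5 to 5.37, 13.9 to 17 and 11.3 to 13.3. Both sums were thus highest in BSA and lowest in Control, as was Slc2a3. Among the macrophage markers, Adgre1 (means 44.2, 49.8 and 47.5 CPM) and Lyz2 (14.6, 21.8 and 15) were highest in BSA. Csf1r (0.758, 0.869 and 1.02) was highest in Taxinine and C1qc (0.237, 0.166 and 0.101) in Control. The other macrophage markers were highest in BSA. The part of either cell type in the Slc2a3 level was not tested. Basophil markers (3 of 3), which mast cell cultures also express, summed to 1317 to 1341, 1289 to 1336 and 1199.6 to 1215 CPM. Of these, Mcpt8 (means 77.4, 91.8 and 71.8 CPM) and Prss34 (484, 524 and 483) were highest in BSA. Cd200r3 (770.0, 699 and 655) was highest in Control. Whether basophils were present, and their part in the changes, was not tested. Neutrophil markers (1 of 7), B cell markers (2 of 4) and erythroid markers (2 of 6) stayed at or below 40.6 CPM, and none of the 5 T cell markers was among the genes analysed here.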

How the data were processed

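Poly(A) RNA libraries of the 9 samples were sequenced from both ends, per the labels' protocols. Reads were aligned with STAR 2.7.0f to mm10/GRCm38, per the submitters' processing notes, which also name limma 3.11; their annotation and counting program: not given in the sources used here. Counts were deposited as whole, unscaled numbers (the name of the table says normalised) for 15109 genes with a count in at least 4 libraries. The deposited log2 values equal log2(CPM + 1) with plain totals within 5.0e-05. From the counts, edgeR 4.0.16 (R 4.3.3) was run as described above, with a biological coefficient of variation of 3.9% and no filter. In simulated counts with 50 of 15109 genes changed at each of 1.25-, 1.5-, 2- and 4-fold, it recovered 80% of the 1.25-fold changes. It recovered 100% of the larger ones. Few genes changed there, in both directions, so the choice of scaling was not tested. Alternatives were other scalings, filterByExpr, DESeq2 1.42.0, limma 3.58.1 on the deposited log2 values, only the 2 groups compared, a replicate block, and leaving out each library. Gene positions and exon lengths came from GENCODE M21 (15106 identifiers matched). Groups follow the sample titles. The 10 genes and the lists were chosen with earlier results of these data known. Genes named are all 10, up to 4 of each other list with the smallest p in each comparison, and the 3 genes most like each of Slc2a3, Hk2 and Pfkfb3. Hif1a, Arnt, Egln1, Egln2 and Egln3 were chosen after their values were seen, as were the cell type markers named singly. Ldhb was not analysed here, so no share of Ldha is given. The 95% intervals come from the edgeR fit and include the variation between libraries; limits of 3 counts cover counting error only.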

Additional observations from a re-analysis of the deposited data

How the results depend on the processing

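Of 540 fold changes of single genes under 18 alternatives per comparison, 512 kept their direction and side of the threshold. Another 10 kept their direction but lost a call, and 18 changed sign, whatever their call. Most followed from plain library totals, used in edgeR with total counts and in limma on the deposited log2 values. There BSA against Control reversed for Hk1 (-0.08 and -0.08), Pfkl (-0.13 and -0.12) and Aldoa (-0.01 and -0.01), and Taxinine against Control for Hk1 (-0.15) and Aldoa (-0.01). With total counts, Hk1 in BSA against Control and Aldoa in both comparisons also lost their calls. Pfkl in BSA against Control and Hk1 in Taxinine against Control were then called lower. Taxinine against BSA, not called in any case, changed sign for Pfkfb3 (0.02 with both, 0.02 without BSA replicate 1, 0.03 without Taxinine replicate 2), Aldoa (0.00 with both and without Taxinine replicate 1) and Pgk1 (0.00 without BSA replicate 3); leaving out 1 library gave -0.03 to 0.03, -0.05 to 0.00 and -0.06 to 0.00 for these 3 genes. All genes called in BSA against Control numbered 7977 with total counts and 7852 with limma, against 5144. Among the 10 genes, 1 was called lower in BSA against Control and 1 in Taxinine against Control in both, and 4 were called higher in Taxinine against Control. The share of higher genes among those called fell from 47.6% to 13.6% in BSA against Control and from 48.1% to 15% in Taxinine against Control with total counts, and went from 40.9% to 57.6% (limma 59.2%) in Taxinine against BSA. Leaving out 1 library gave 616 to 1281 genes called in Taxinine against BSA (main 1055), with 659, 616 and 699 without Taxinine replicates 1, 2 and 3. The 3 same-numbered pairs of libraries in each comparison had correlations of their deviations from -0.152 to 0.123. Differently numbered pairs ran from -0.124 to 0.151, and libraries did not all correlate best with their own number. With 3 libraries a group this check cannot decide whether same-numbered samples shared a culture or batch. The main fit used no replicate block. A replicate block gave 5078, 1093 and 4972 called genes in BSA against Control, Taxinine against BSA and Taxinine against Control, with 9 of the 10 genes higher, 1 lower (Slc2a3) and 9 higher.

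As shares of plain counts, not corrected for length, the paralog shares in Control, BSA and Taxinine were 56.2%, 80.1% and 74.1% for Slc2a3, 25.7%, 45.6% and 48.4% for Hk2, 18.6%, 15.5% and 17.8% for Pfkl and 99.2%, 99.5% and 99.3% for Aldoa. The summed level of the 10 genes was 0.381%, 0.563% and 0.526% of TMM-scaled totals. With 3 libraries per group and a depth of 8975371 to 14116976 counts, differences of the size seen for Slc2a1 or Hk2 between Taxinine and BSA may go uncalled, and genes near 3 counts per library, such as Slc2a10, are imprecise.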
